A study of Mus musculus with 6 samples.

Results

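The insulin-like growth factor (IGF) axis of the mouse hippocampus was followed through 9 genes, matched by symbol among 54752 counted genes. They are the ligand gene Igf1, the receptor genes Igf1r and Igf2r, and the binding protein genes Igfbp2, Igfbp3, Igfbp4, Igfbp5, Igfbp6 and Igfbp7. All 9 were among the 18617 genes that passed edgeR's filter on low counts. RNA-seq was performed on the entire right hippocampus of 6 male wild-type C57BL/6 mice, labelled 14 weeks, with 1 library per mouse. The methods of the paper write the strain as C57BL/6 J. Bilateral carotid artery stenosis (BCAS) places a microcoil around each common carotid artery, here with the narrower coil on the right, and lowers blood flow to the brain. The 3 sham mice went through the operation without coils, and tissue of both groups was collected 3 weeks after surgery. Both groups were operated on under isoflurane.

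IGF1 is a growth factor that signals mainly through the tyrosine kinase receptor encoded by Igf1r, which feeds the PI3K-AKT and Ras-MAPK pathways. The product of Igf2r carries no kinase. It binds IGF2 and proteins tagged with mannose 6-phosphate and takes them to lysosomes. The binding proteins encoded by Igfbp2 to Igfbp6 hold IGFs with high affinity in the extracellular space, where they can store the ligand or keep it from its receptor, and the product of Igfbp7 binds IGFs only weakly. In the brain, microglia are a known source of Igf1, and binding proteins come from astrocytes, neurons, vessels, meninges and the choroid plexus.

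The libraries held 29652456 to 35607098 counts. CPM are read counts brought to a common library size, with totals scaled by TMM factors from edgeR that were 0.964 to 0.984 in sham and 1.01 to 1.05 in BCAS libraries, and 3 counts equal 0.0874 to 0.0994 CPM. Markers of hippocampal neurons were read in all 6 libraries, such as Prox1 of dentate granule cells (96.9 ± 20.1 CPM in sham mice, 88.1 ± 29.1 in BCAS mice, SD, n = 3 each). Neuronal lists fell in part, with 6 of 8 general neuron markers, 5 of 7 CA1 markers and 5 of 8 CA2 and CA3 markers lower in BCAS at adjusted P under 0.05. Of the border-associated macrophage markers, 5 of 7 were higher. No oligodendrocyte marker of 8 was called by edgeR or limma-voom, while 1 was called higher by DESeq2 and 1 had an unadjusted edgeR P under 0.05. Choroid plexus markers stood far apart between mice of the same group, as given below beside Igfbp2. The median log2 fold change over the tested genes was 0.018, with quartiles of -0.24 and 0.40.

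Upstream sequences are shown for the 4 binding protein genes whose levels moved, since these genes differ in the elements next to their start sites. Each is 100 bases long, runs 5′ to 3′ on the strand of the gene, and comes from RefSeq on build GRCm38.p6. Capitals mark the TATTTAA run in Igfbp5, the TATAAA box in Igfbp4, and the GC box GGGCGG or its reverse complement in Igfbp7 and Igfbp2.
Igfbp5 (chr1:72874885-72874984, minus strand): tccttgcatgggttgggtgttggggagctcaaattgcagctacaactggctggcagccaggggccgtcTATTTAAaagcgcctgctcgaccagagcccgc
Igfbp7 (chr5:77408046-77408145, minus strand): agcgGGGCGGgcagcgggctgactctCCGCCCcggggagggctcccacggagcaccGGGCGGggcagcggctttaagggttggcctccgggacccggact
Igfbp4 (chr11:99041144-99041243, plus strand): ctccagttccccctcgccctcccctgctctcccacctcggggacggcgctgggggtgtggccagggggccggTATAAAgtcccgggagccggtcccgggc
Igfbp2 (chr1:72824380-72824479, plus strand): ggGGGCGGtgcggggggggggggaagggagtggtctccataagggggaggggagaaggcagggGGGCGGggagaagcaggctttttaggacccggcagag

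The Igfbp5 sequence ends 19 bases before its RefSeq start site, and the other sequences end at theirs. All 9 genes matched RefSeq promoter entries, Igfbp2 with 2 entries, which gave 10 windows of 250 bases before a RefSeq start site. The Igf1 window lies wholly in an exon of the counted gene, as its RefSeq start is 2846 bases inside that gene, and the second Igfbp2 start is 884 bases inside its gene. The TATAAA box, searched on both strands, was in the windows of Igfbp4 and Igfbp6, and 12.4% of 32851 mouse promoter windows of this length held it. TATTTAA, a motif added after the sequences were seen, was in the window of Igfbp5 and in 4.18% of all windows. GGGCGG was in 4 of the 10 windows (Igf1r, Igf2r, Igfbp2 and Igfbp7) against 32.7% of all windows. The E-box CACGTG was in those of Igf2r and Igfbp2, against 6.02%. GAGGAA, the core of sites for the myeloid factor PU.1, was in 3 windows (Igf1, Igfbp6 and the second entry of Igfbp2) against 23.3%. No window held the STAT motif TTCNNNGAA, present in 7.02% of all windows, or the interferon motif GAAANNGAAA, present in 2.98%. The windows of Igfbp7 and Igfbp4 were richest in G and C among these 4 genes, at 74.0% and 69.2%, against 67.2% for Igfbp2, 58.8% for Igfbp5 and a median of 52.4% over all windows. Such matches describe the letters only and locate no bound factor.

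Of the 9 genes, 5 were higher in BCAS mice at adjusted P under 0.05 (Igf1, Igf2r, Igfbp2, Igfbp5 and Igfbp7), while 18.0% of all tested genes were. Igfbp4 alone was lower, and 13.2% of all tested genes were lower. Igf1r, Igfbp3 and Igfbp6 did not pass the test. With the added demand of an absolute log2 fold change above 1, Igf1, Igfbp2, Igfbp5 and Igfbp7 were up-regulated DEGs, a class that held 8.47% of all tested genes. No member was a down-regulated DEG, a class of 0.999% of tested genes. DESeq2 and limma-voom also called 1 member lower, and each called 4 higher. Fits of edgeR that left out 1 mouse called 3 to 6 members, fewest without sham mouse 1 or 3. With the replicate number as a block, 4 were called. The median log2 fold change of the 9 genes was 0.41. The groups did not overlap for 4 genes that were higher (Igf1, Igf2r, Igfbp5 and Igfbp7) and 1 that was lower (Igfbp4), against 25.3% and 22.7% of all tested genes. The mice are separate animals, so these P values refer to the spread between mice.

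**Figure D1:**
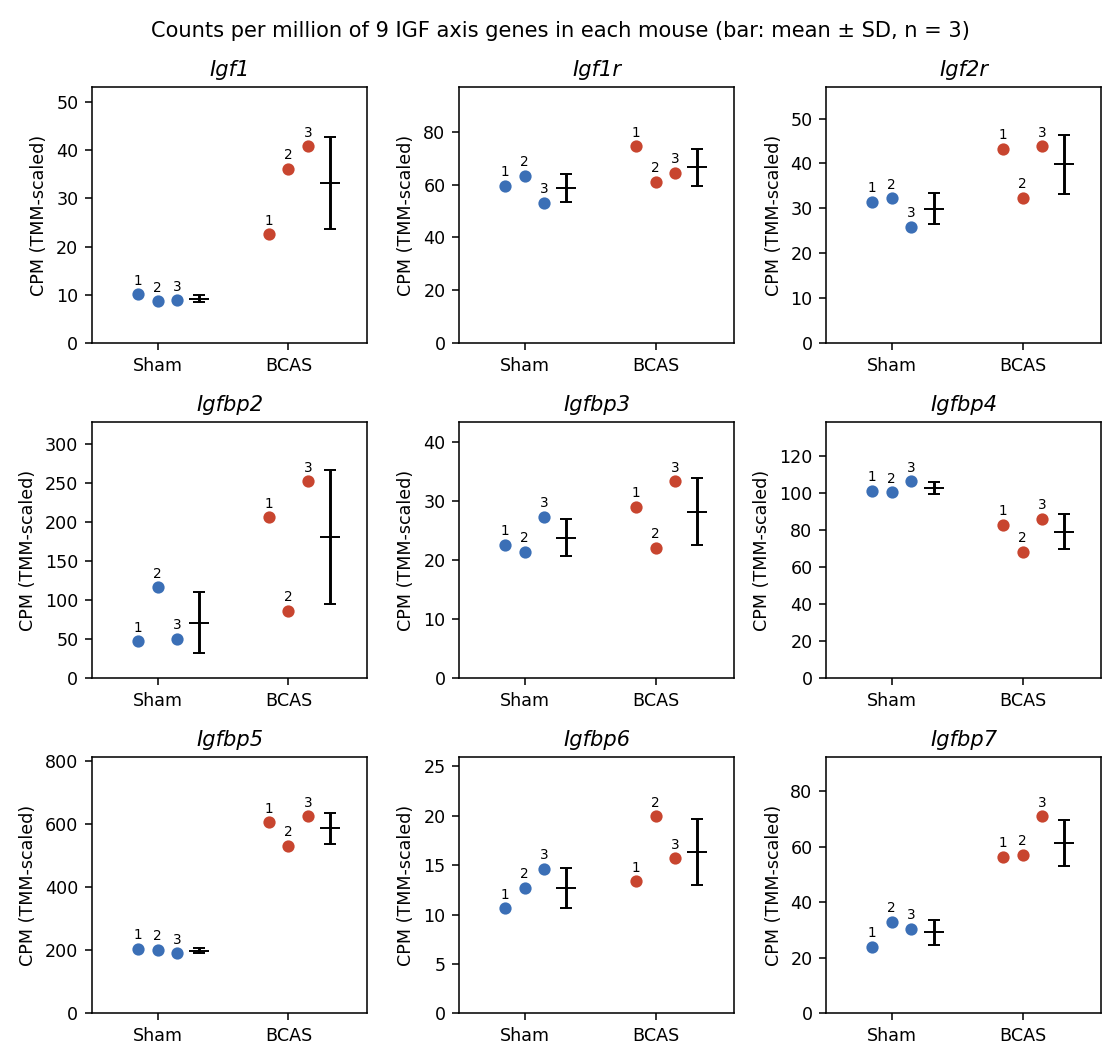
CPM of the 9 genes in each mouse, with mouse numbers beside the points and the mean ± SD (n = 3) as a bar; each panel has its own linear axis from 0. Igf1, Igfbp5 and Igfbp7 lay apart in the 2 groups, Igfbp4 was lower in every BCAS mouse, and Igfbp2 varied within both groups.

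Igf1, the ligand gene (chr10:87858265-87937042 on mm10, plus strand, ENSMUSG00000020053.18), rose 3.59-fold in BCAS hippocampus. It had 10.1, 8.67 and 8.89 CPM in sham mice 1, 2 and 3, and 22.5, 36.2 and 40.8 CPM in BCAS mice 1, 2 and 3. Every BCAS mouse was above every sham mouse, and BCAS mouse 1 was the lowest of its group. These values rest on 290 to 343 counts in the sham libraries and 733 to 1274 counts in the others. The mean went from 9.22 ± 0.778 to 33.2 ± 9.49 CPM (SD, n = 3 each), and the coefficient of variation from 8.44% to 28.6%. This gave a log2 fold change of 1.85 (SE 0.21, edgeR adjusted P = 0.000289, 95% interval 1.38 to 2.31).

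The median microglial marker had a larger fold change than Igf1. All 10 homeostatic microglia markers were higher, with a median log2 fold change of 2.64, and their summed level spanned 344 to 367 CPM in the sham group and 1813 to 2913 CPM in the BCAS group. Csf1r, the receptor for the survival factor of microglia, and Cx3cr1, the fractalkine receptor gene, had log2 fold changes of 2.58 and 2.73. All 10 disease-associated microglia markers were higher as well (median 4.33), among them the protease gene Ctsb (1.80), the tetraspanin gene Cd9 (2.43) and the receptor kinase gene Axl (1.88). Their sum reached 2597 to 4026 CPM in BCAS mice, from 684 to 710 CPM in sham mice. In bulk tissue, more cells of a type and more RNA per cell cannot be told apart.

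Set against these markers, Igf1 was lower in BCAS mice. The log2 CPM of Igf1 minus the mean log2 CPM of the homeostatic markers averaged -1.49 ± 0.08 for sham and -2.20 ± 0.33 for BCAS mice, without overlap. Against the disease-associated markers it averaged 0.11 ± 0.08 for sham mice and -2.44 ± 0.15 in BCAS mice, again without overlap. Both differences, -0.71 and -2.55, had an exact two-sided permutation P = 0.1, the smallest that 3 mice against 3 allow. The value was adjusted P = 0.136 over the 15 differences between a member and a marker list that were computed. Leaving out any single mouse did not reverse either difference. With the median of the markers in place of their mean, the differences were -0.38 and -2.40. The part of microglia in the rise of Igf1 was not tested.

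Lrrc3, Ifit2 and Slc16a3 had the profiles closest to Igf1 among tested genes with a mean of at least 5 CPM. Closeness was the Euclidean distance of log2 CPM, centered on the sham mean, over the 6 libraries, and the distances were 0.30, 0.33 and 0.36. Ifit2, an interferon-induced gene, had 12.7, 10.6 and 11.7 CPM in sham mice and 27.8, 42.0 and 63.3 CPM in BCAS mice. Lrrc3, which encodes a leucine-rich repeat protein, and Slc16a3, a lactate and monocarboxylate transporter gene, had log2 fold changes of 1.82 and 1.92. As with Igf1, BCAS mouse 1 was lowest and BCAS mouse 3 highest for all 3 of these genes. They were picked for likeness over these same libraries, so a shared order and similar fold changes follow from the choice. The same holds for the genes closest to other members below.

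Igf1r, the receptor kinase gene (chr7:67952827-68233668, plus strand, ENSMUSG00000005533.10), showed no change that passed the test. It had 59.6, 63.3 and 53.1 CPM in sham mice and 74.4, 60.9 and 64.3 CPM in BCAS mice. The groups overlapped, with BCAS mouse 2 below sham mouse 2. Its log2 fold change was 0.18 (SE 0.10, adjusted P = 0.194), and its 95% interval ran from -0.04 to 0.41. It rested on 1822 to 2421 counts per library, and leaving out 1 mouse gave 0.09 to 0.24.

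Igf2r, the lysosomal sorting receptor gene (chr17:12682406-12769664, minus strand, ENSMUSG00000023830.14), was 1.33-fold higher in BCAS mice, close to the threshold of the test. It had 31.5, 32.24 and 25.9 CPM in sham mice and 43.3, 32.29 and 43.8 CPM in BCAS mice. BCAS mouse 2 was level with sham mouse 2, and the other two BCAS mice were above all sham mice. The log2 fold change was 0.41 (SE 0.14, adjusted P = 0.0493, 95% interval 0.10 to 0.73). Without sham mouse 1, 2 or 3 it was 0.45, 0.47 or 0.32 (adjusted P = 0.0985, 0.0739 and 0.170). Without BCAS mouse 1 or 3 it was 0.35 or 0.33 (adjusted P = 0.132 and 0.148). With all 6 libraries it was also lost under limma-voom (0.41, adjusted P = 0.0528), RLE factors (0.40, adjusted P = 0.0540) and the replicate number as a block (0.41, adjusted P = 0.0989). The direction held in each of these fits.

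Igfbp5 had the largest count of the 9 genes and the tightest groups relative to its change. Its product binds to extracellular matrix as well as to IGFs. The gene (chr1:72857932-72874884, minus strand, ENSMUSG00000026185.8) had 204, 202 and 190.1 CPM in sham mice and 605, 530.5 and 624 CPM in BCAS mice. The lowest BCAS mouse was far above the highest sham mouse. The coefficient of variation was 3.80% in sham and 8.40% in BCAS mice, with 6525 to 19663 counts per library. The mean went from 199 ± 7.55 to 586 ± 49.2 CPM, a 2.95-fold rise (log2 fold change 1.56, SE 0.09, adjusted P = 1.71e-05, 95% interval 1.35 to 1.77).

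Markers of 3 cell types were set beside Igfbp5. All 10 astrocyte markers were higher, with a median log2 fold change of 0.67, and their sum spanned 4159 to 4515 CPM in the sham group and 9269 to 9864 CPM in the BCAS group. Gfap, the intermediate filament gene of reactive astrocytes, had a log2 fold change of 3.29, and the glutamate transporter genes Slc1a2 and Slc1a3 had 0.41 and 0.65. Igfbp5 minus the mean of the astrocyte markers was 0.05 ± 0.05 in sham and 0.62 ± 0.08 in BCAS mice on the log2 scale, without overlap. With the median of the markers in place of their mean, the difference between groups was 0.39 instead of 0.58. Of 8 dentate granule cell markers, 2 were lower and none was higher, with a median log2 fold change of -0.05, and Igfbp5 minus their mean was 1.79 higher in BCAS mice. Stxbp6, C1ql2 and Prox1, the most abundant of that list, had log2 fold changes of -0.04, -0.06 and -0.14 that did not pass the test. Against pericyte and smooth muscle markers Igfbp5 was 1.06 higher, again without overlap. Each of these differences had an exact permutation P = 0.1, the smallest possible, and adjusted P = 0.136. The cell type in which Igfbp5 rose was not tested.

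The genes closest to Igfbp5 were Pnpla7, a lysophospholipase gene, at a distance of 0.19, Cchcr1 at 0.20 and Rhbdf2, a regulator of the shedding of TNF, at 0.23. Pnpla7 had 16.9, 15.8 and 16.1 CPM in sham mice and 46.2, 44.3 and 56.2 CPM in BCAS mice. The log2 fold changes of Pnpla7, Cchcr1 and Rhbdf2 were 1.59, 1.53 and 1.57.

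Igfbp7 is a gene of vessel walls and other cells whose product also binds collagen. It (chr5:77349240-77408041, minus strand, ENSMUSG00000036256.13) rose 2.11-fold. It had 23.9, 33.0 and 30.4 CPM in sham mice and 56.3, 57.1 and 70.9 CPM in BCAS mice. The groups did not overlap, and sham mouse 1 was the lowest of all. The mean went from 29.1 ± 4.66 to 61.4 ± 8.23 CPM (log2 fold change 1.08, SE 0.14, adjusted P = 0.000599, 95% interval 0.77 to 1.39). Without sham mouse 1 or BCAS mouse 3 it was 0.95 or 0.96, still past the test but short of the fold change that defines a DEG. Strand was ignored in counting, and 85 exonic bases of Igfbp7, 7.03% of its length, lie opposite exons of Polr2b. Reads there overlap both genes. Polr2b, an RNA polymerase II subunit gene, summed to 6327 counts in sham and 5568 in BCAS libraries.

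Endothelial markers were higher for 6 of 10 genes (median log2 fold change 0.45), and their sum spanned 473 to 530.0 CPM in BCAS mice and 364 to 396 CPM in the sham group. Flt1, a VEGF receptor gene, and Slco1a4, an organic anion transporter gene of the blood-brain barrier, had log2 fold changes of 0.60 and 0.41, and Itm2a had 0.22, which did not pass the test. Pericyte and smooth muscle markers were higher for 6 of 10 genes (median 0.69, summed CPM of 339 to 423 for sham and 464 to 535 for BCAS mice). Among the most abundant of them, Vtn (0.73) and Pdgfrb (0.65), the PDGF receptor gene of pericytes, passed the test and Rgs5 (0.14) did not. Igfbp7 minus the endothelial mean was -0.13 ± 0.22 in sham and 0.50 ± 0.12 in BCAS mice. Minus the pericyte and smooth muscle mean it was 0.85 ± 0.26 and 1.44 ± 0.14. Neither pair of groups overlapped (exact permutation P = 0.1, adjusted P = 0.136). The genes closest to Igfbp7 were Nod1 (distance 0.20, log2 fold change 1.03) and Ticam1 (0.20, 1.10), which encode a sensor of bacterial peptides and a Toll-like receptor adaptor, and the sialyltransferase gene St3gal6 (0.21, 1.09).

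**Figure D2:**
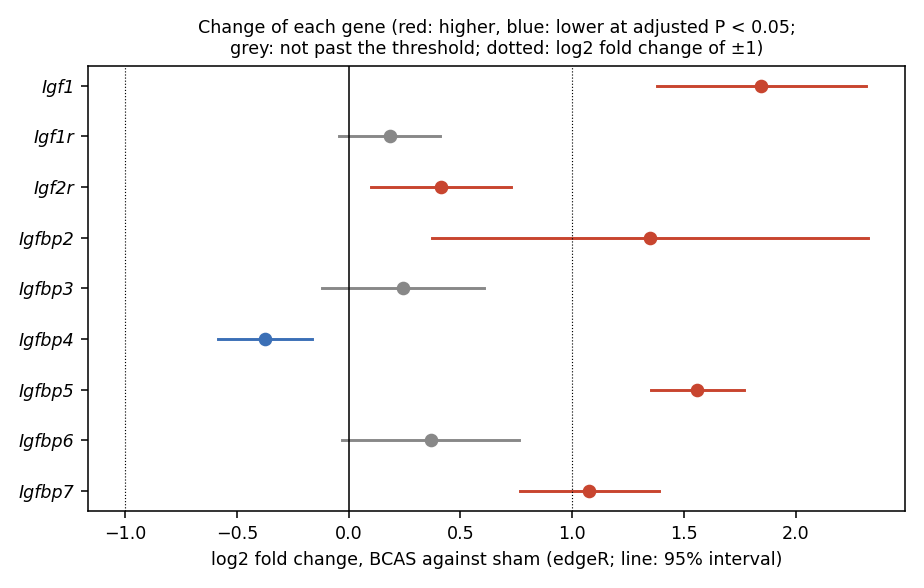
Log2 fold change of each gene in BCAS against sham mice, with its 95% interval from edgeR as a line and dotted lines at a change of 1 in either direction. The interval of Igfbp5 (1.35 to 1.77) was the narrowest of the up-regulated DEGs among the 9 genes and that of Igfbp2 (0.37 to 2.32) the widest.

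Igfbp2, which encodes a binding protein of astrocytes, meninges and choroid plexus, was on average 2.55-fold higher in BCAS mice, but its groups overlapped. The gene (chr1:72824503-72852474, plus strand, ENSMUSG00000039323.18) had 47.4, 117 and 50.1 CPM in sham mice and 206, 86.2 and 253 CPM in BCAS mice. Sham mouse 2 was above BCAS mouse 2, and each of these mice lay far from the other two of its group. The mean went from 71.4 ± 39.3 to 182 ± 85.9 CPM, with coefficients of variation of 55.0% and 47.3%. The log2 fold change was 1.35 (SE 0.43, adjusted P = 0.0423, 95% interval 0.37 to 2.32), and with DESeq2 it was 1.33 (adjusted P = 0.0840). Without sham mouse 1 or 3 it was 1.12 or 1.14 (adjusted P = 0.149 and 0.152), and without BCAS mouse 1 or 3 it was 1.24 or 1.03 (adjusted P = 0.0885 and 0.137). With the replicate number as a block it was 1.39 (adjusted P = 0.109). The direction held in each of these fits.

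Igfbp2 was set beside the choroid plexus markers, which split both groups into mice with high and low levels. The summed level of the 10 markers was 1030 CPM, 4237 CPM and 77.9 CPM in sham mice 1, 2 and 3, and 6164 CPM, 53.9 CPM and 3357 CPM in BCAS mice 1, 2 and 3. Ttr, the transthyretin gene and the most abundant of them, ranged from 38.0 to 3770 CPM among sham mice and from 23.6 to 5455 CPM among BCAS mice. The highest Igfbp2 values of each group were in mice with high markers, which are sham mouse 2 and BCAS mice 1 and 3. The order was not the same throughout, since sham mouse 1 had more of the markers but less Igfbp2 than sham mouse 3, and BCAS mouse 1 likewise against BCAS mouse 3. None of the 10 markers was called between the groups by edgeR, DESeq2 or limma-voom, and none had an unadjusted edgeR P under 0.05. Kl and Clic6, the next most abundant, had log2 fold changes of 0.64 and 0.88 with the groups overlapping. No marker of the list was absent from all libraries. BCAS mouse 2, with the lowest summed markers of all, had more Igfbp2 (86.2 CPM) than sham mice 1 and 3 (47.4 and 50.1 CPM). Within the BCAS group this comparison rests on that mouse alone. With the mean log2 CPM of the markers as a covariate in the edgeR fit, chosen after this spread was seen, the log2 fold change of Igfbp2 was 1.09 (adjusted P = 0.00413). The part of choroid plexus in the rise of Igfbp2 was not tested.

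**Figure D3:**
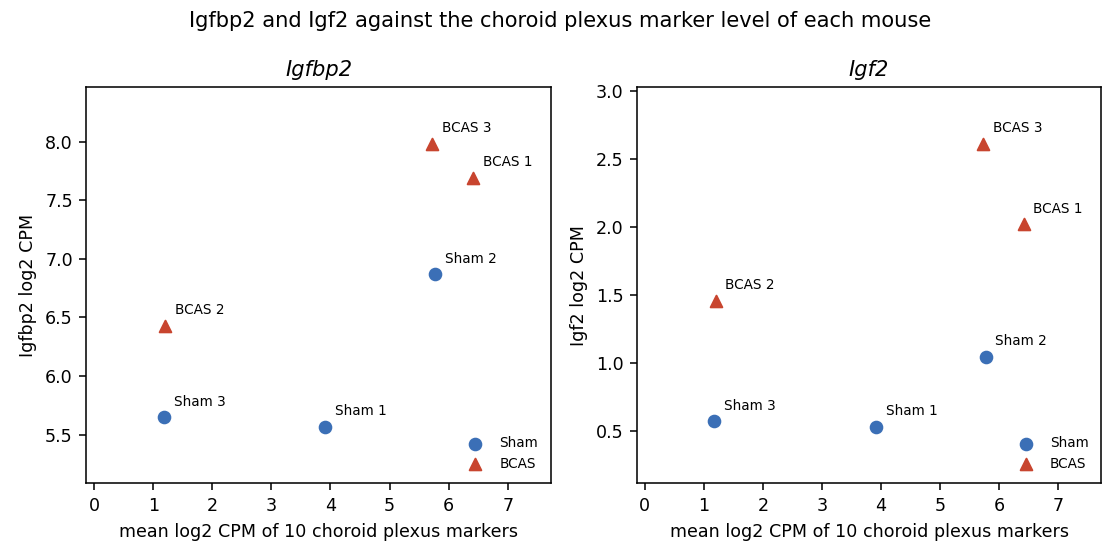
Log2 CPM of Igfbp2 (left) and Igf2 (right) in each mouse against the mean log2 CPM of 10 choroid plexus markers, with sham mice as circles and BCAS mice as triangles. At low marker levels BCAS mouse 2 lay above sham mouse 3 for both genes, and the highest value of each group came with high markers.

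Igfbp2 was also set beside markers of 2 other possible sources. Meningeal fibroblast markers were higher for 6 of 10 genes (median log2 fold change 0.87, summed CPM of 191 to 319 for sham and 374 to 556 for BCAS mice), with Aebp1 at 1.71 and with Dcn (0.27) and Pdgfra (0.17), which is also a gene of oligodendrocyte precursors, short of the test. Igfbp2 minus the list mean overlapped between the groups for the choroid plexus, meningeal and astrocyte lists, with exact permutation P = 0.6, 0.8 and 0.8. The genes closest to Igfbp2 were Angptl2, Nid2, a basement membrane gene, and Slc16a12, a transporter gene, at distances of 0.40, 0.45 and 0.54. Angptl2, a secreted angiopoietin-like factor, had 4.54, 10.6 and 5.13 CPM in sham mice and 21.9, 10.5 and 26.2 CPM in BCAS mice. As for Igfbp2, sham mouse 2 was above BCAS mouse 2 for each of the 3 genes, though only just for Angptl2. Choosing genes for likeness to Igfbp2 favors such an order.

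Igfbp4 was the only one of the 9 genes that fell. It encodes a binding protein that keeps IGFs from their receptor until the protease PAPP-A cuts it. The gene (chr11:99041244-99054392, plus strand, ENSMUSG00000017493.12) had 101.2, 100.5 and 106.5 CPM in sham mice and 83.0, 68.5 and 86.2 CPM in BCAS mice. All BCAS mice were below all sham mice, and BCAS mouse 2 was the lowest. The mean went from 103 ± 3.27 to 79.2 ± 9.46 CPM, which is 0.771 of the sham level (log2 fold change -0.37, SE 0.09, adjusted P = 0.0160, 95% interval -0.59 to -0.16). Without sham mouse 1 or 3 the log2 fold change was -0.39 or -0.35 (adjusted P = 0.0501 and 0.0639), and with plain library totals in place of TMM it was -0.30 (adjusted P = 0.0529). Igfbp4 minus the mean of the endothelial markers averaged 1.70 ± 0.02 for sham mice and 0.87 ± 0.08 in BCAS mice. These groups did not overlap (exact permutation P = 0.1, adjusted P = 0.136).

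Igfbp3 and Igfbp6 did not pass the test. Igfbp3, the main IGF carrier of serum (chr11:7206086-7213923, minus strand, ENSMUSG00000020427.11), had 22.6, 21.5 and 27.4 CPM in sham mice and 29.1, 22.2 and 33.4 CPM in BCAS mice. BCAS mouse 2 lay within the sham range and the other two above it. Its log2 fold change was 0.24 (SE 0.16, adjusted P = 0.281, 95% interval -0.12 to 0.60), and leaving out 1 mouse gave 0.10 to 0.38 (lowest adjusted P = 0.0512). Igfbp3 minus the endothelial mean overlapped between groups (exact permutation P = 0.2), and minus the pericyte and smooth muscle mean it was 0.57 ± 0.06 in sham and 0.30 ± 0.09 in BCAS mice, a difference of -0.27 with the mean and -0.17 with the median of the markers.

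Igfbp6, whose product prefers IGF2 (chr15:102144362-102149511, plus strand, ENSMUSG00000023046.6), had 10.6, 12.7 and 14.7 CPM in sham mice and 13.4, 19.9 and 15.7 CPM in BCAS mice. BCAS mouse 1 lay within the sham range and the other two above it. The log2 fold change was 0.37 (SE 0.18, adjusted P = 0.146, 95% interval -0.03 to 0.76), and 0.42 with the choroid plexus covariate (adjusted P = 0.0398). Leaving out 1 mouse gave 0.19 to 0.49. Interneuron markers were lower for 7 of 10 genes (median -0.46, summed CPM of 1318 to 1497 for sham and 809.8 to 1034 for BCAS mice), with Gad1, Cck and Sst at -0.46, -1.02 and -1.10. Igfbp6 minus their mean was 0.88 higher in BCAS mice, and 0.45 higher with the median of the markers. Minus the meningeal fibroblast mean it was 0.63 lower, and 1.18 lower with the median. Neither pair of groups overlapped with the mean (exact permutation P = 0.1, adjusted P = 0.136).

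Levels of different genes were compared per length, as RPKM, which is CPM divided by the exonic length in kilobases. In sham mice Igfbp2 (38.7 ± 21.3) and Igfbp5 (33.1 ± 1.26) were highest, followed by Igfbp7 (24.1 ± 3.85) and Igfbp4 (23.3 ± 0.741). Below these came Igfbp6 (11.4 ± 1.82), Igfbp3 (7.62 ± 1.00), Igf1r (3.49 ± 0.308), Igf2r (3.21 ± 0.373) and, lowest, Igf1 (0.931 ± 0.0786). The ranges of neighbors in this order overlapped for Igfbp2 and Igfbp5, Igfbp7 and Igfbp4, and Igf1r and Igf2r, and the other 5 of 8 neighboring pairs were apart. In BCAS mice Igfbp2 (98.4 ± 46.5) and Igfbp5 (97.6 ± 8.20) led, then Igfbp7 (50.8 ± 6.81), Igfbp4 (17.9 ± 2.14), Igfbp6 (14.7 ± 2.99) and Igfbp3 (9.01 ± 1.81). Among these, the ranges of Igfbp2 and Igfbp5 overlapped, as did those of Igfbp4 and Igfbp6. In BCAS mouse 2, Igfbp6 (17.9) was above Igfbp4 (15.5), and Igfbp2 (46.6) was just below Igfbp7 (47.2). Igf2r (4.28 ± 0.700), Igf1r (3.97 ± 0.418) and Igf1 (3.35 ± 0.959) formed the lower end, where each overlapped with its neighbor. Igf1, below both receptors in every sham mouse, overlapped with Igf1r in BCAS mice. Igfbp7 and Igfbp4, level in sham mice, were apart in every BCAS mouse.

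The 6 binding protein genes summed to 119, 165 and 130.0 RPKM in sham mice and 299, 223 and 344 RPKM in BCAS mice. The sum was higher in each BCAS mouse than in any sham mouse (138 ± 24.1 against 288 ± 61.1), and the lowest BCAS sum was in mouse 2, which had the least Igfbp2 of its group. Igfbp5 made up 24.4% ± 4.07 of the sum in sham mice and 34.5% ± 4.78 in BCAS mice, with ranges of 20.4% to 28.5% and 30.2% to 39.7%. Igfbp4 made up 17.2% ± 2.98 and 6.31% ± 0.640, and Igfbp3 5.65% ± 1.34 and 3.13% ± 0.0426, both without overlap. The shares of Igfbp2 (26.9% ± 9.85 and 32.7% ± 10.3), Igfbp6 (8.36% ± 1.63 and 5.39% ± 2.30) and Igfbp7 (17.5% ± 1.61 and 18.0% ± 2.91) overlapped. Since these shares add up to the whole, a rise in one gene lowers the share of the others. Relative to Igf1, the sum of Igfbp2 to Igfbp6 was 97.3, 157 and 117 times as high in sham mice and 111, 48.0 and 69.1 times as high in BCAS mice, with BCAS mouse 1 inside the sham range.

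**Figure D4:**
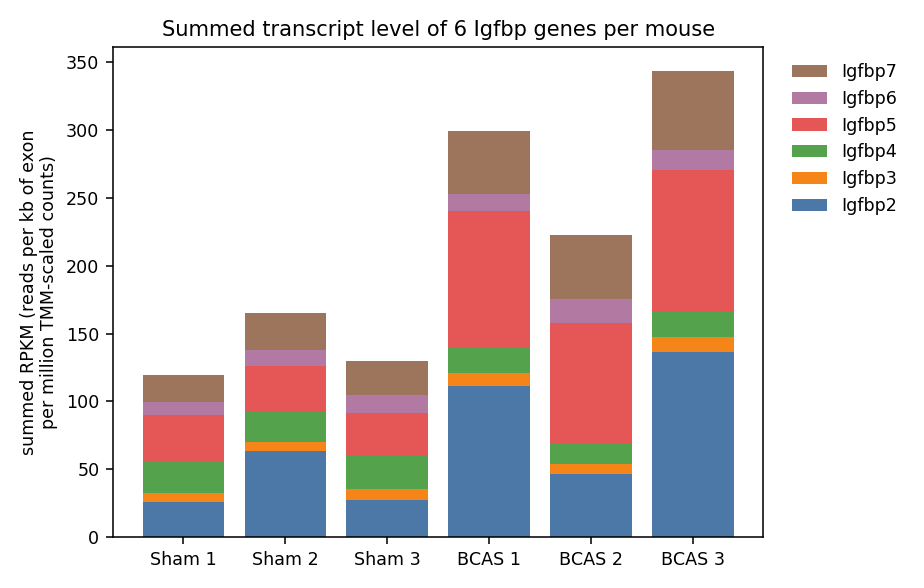
Stacked RPKM (linear axis from 0) of the 6 binding protein genes in each mouse. Sham sums spanned 119 to 165 and BCAS sums 223 to 344, and Igfbp5 took over 30% of the sum in each BCAS mouse.

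The other genes of the pathway were taken from 8 lists with 80 genes, of which 76 were tested. Of these, 20 (26.3%) were higher and 11 (14.5%) lower in BCAS mice, beside 18.0% and 13.2% of all tested genes, and 45 did not pass. Of the 31 calls, 19 held without each of the 6 libraries in turn and 12 were lost without at least 1. There were 6 up-regulated DEGs (Igf2, Igf2bp2, Stat5a, Inpp5d, Sh2b2 and Eif4ebp1) and no down-regulated DEG in these lists.

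Igf2, the second IGF ligand gene and one known for high expression in choroid plexus and meninges, was low in the hippocampus. It had 47, 67 and 49 counts in sham libraries and 130, 81 and 189 counts in BCAS libraries, or 1.39, 2.004 and 1.43 CPM against 3.997, 2.68 and 6.05 CPM. The groups did not overlap, and BCAS mice 1 and 3, with high choroid plexus markers, had the highest values. The log2 fold change was 1.40 (SE 0.32, adjusted P = 0.0116). It was 1.25 with the choroid plexus covariate (adjusted P = 0.00755), and the call was lost without sham mouse 1 or 3 (highest adjusted P = 0.0544). The part of choroid plexus in the rise of Igf2 was not tested. Among the others of the family, Insr, the insulin receptor gene (0.02), Insrr (0.04), Igfbpl1 (0.94, adjusted P = 0.0971) and Ins2 (1.22, adjusted P = 0.444) did not pass. Igfbp1, the binding protein gene of liver, was not tested, with 4, 5 and 8 counts in sham and 0 in each BCAS library. Igfals, for the serum partner of the IGF complexes, was also too low to test, and Ins1 had 0 counts throughout.

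Genes that act on the binding proteins showed no call by edgeR, DESeq2 or limma-voom among 6, and 1 had an unadjusted edgeR P under 0.05. Pappa and Pappa2, which encode proteases that cut IGF-binding proteins, had log2 fold changes of -0.09 and 0.17. Stc1 and Stc2, which encode inhibitors of these proteases, had -0.21 and -0.41. Htra1, a secreted serine protease gene, was 0.18 (adjusted P = 0.0904) and Adam12 was 0.27. Pappa rested on 20 to 62 counts per library, and its log2 fold change had an SE of 0.41. Of the genes for IGF2 mRNA-binding proteins, Igf2bp2 was higher (log2 fold change 1.70, SE 0.47, adjusted P = 0.0243), from 0.591 ± 0.184 to 1.93 ± 1.12 CPM, a call lost without any one of the sham mice or BCAS mouse 3 (up to adjusted P = 0.0978). Igf2bp3 had -0.07, and Igf2bp1 was too low to test.

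Growth hormone input, which induces Igf1 in liver through JAK2 and STAT5, had 4 of 5 genes higher. Stat5a was 1.77 higher on the log2 scale (SE 0.24, adjusted P = 0.000897) and Stat5b 0.74 (adjusted P = 0.00218). The growth hormone receptor gene Ghr (0.46, adjusted P = 0.0208) and Jak2 (0.29, adjusted P = 0.0184) were called in the full set, Ghr in only 1 and Jak2 in 3 of the 6 fits that left out a mouse. Socs2, a feedback inhibitor of this input, had -0.33 (adjusted P = 0.106). Of 4 genes for mannose 6-phosphate sorting, the pathway that Igf2r serves, Nagpa, the enzyme that uncovers the tag, was 0.99 higher (adjusted P = 0.000961) and M6pr, the smaller sorting receptor, 0.27 (adjusted P = 0.0176, lost without any one of the sham mice). Gnptab and Gnptg, subunits of the enzyme that adds the tag, had 0.01 and 0.06.

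Downstream of the receptor, 8 of 26 proximal signaling genes were higher, 3 lower and 15 did not pass, with a median of 0.07. The largest changes were in Inpp5d, which encodes the lipid phosphatase SHIP1 of blood cells and microglia (3.01, adjusted P = 2.08e-05), the adaptor genes Sh2b2 (1.47, adjusted P = 0.000595) and Shc1 (0.99, adjusted P = 0.00286), and Inppl1, the paralog of Inpp5d (0.96, adjusted P = 0.000384). The kinase gene Pdpk1 (-0.43) and the PI3K subunit gene Pik3r2 (-0.35) were among those that fell. The docking protein genes Irs1 (0.17) and Irs2 (-0.19) did not pass. The mTORC1, FoxO and GSK3 branch held no larger shares of higher and lower genes than all tested genes (18.0% and 13.2%). In it, 3 of 18 genes were higher and 2 lower (median -0.004). They were led by Eif4ebp1, a repressor of translation that mTORC1 inactivates (1.47, adjusted P = 0.00203), the kinase gene Gsk3a (-0.44, adjusted P = 0.00949), the transcription factor gene Foxo3 (0.39, adjusted P = 0.0102) and Rheb, the activator of mTORC1 (-0.33, adjusted P = 0.0226). Rheb lost its call without sham mouse 2 or 3 or BCAS mouse 1 or 3 (up to adjusted P = 0.0919).

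The Ras-MAPK branch was lower for 6 of 10 genes and higher for 1, with a median of -0.27. Map2k1 (-0.53, adjusted P = 0.00927), Hras (-0.53, adjusted P = 0.00638) and Braf (-0.43, adjusted P = 0.00358), which encode MEK1, a small GTPase and a RAF kinase, were lower, and Nras (0.43, adjusted P = 0.00783) was higher. The general neuron markers Camk2a, Snap25 and Syt1 had log2 fold changes of -0.70, -0.70 and -0.56 in the same libraries, and that list summed to 10193 to 10693 CPM in the sham and 5359 to 7881 CPM in the BCAS group. The part of neuron number in the pathway values was not tested.

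**Figure D5:**
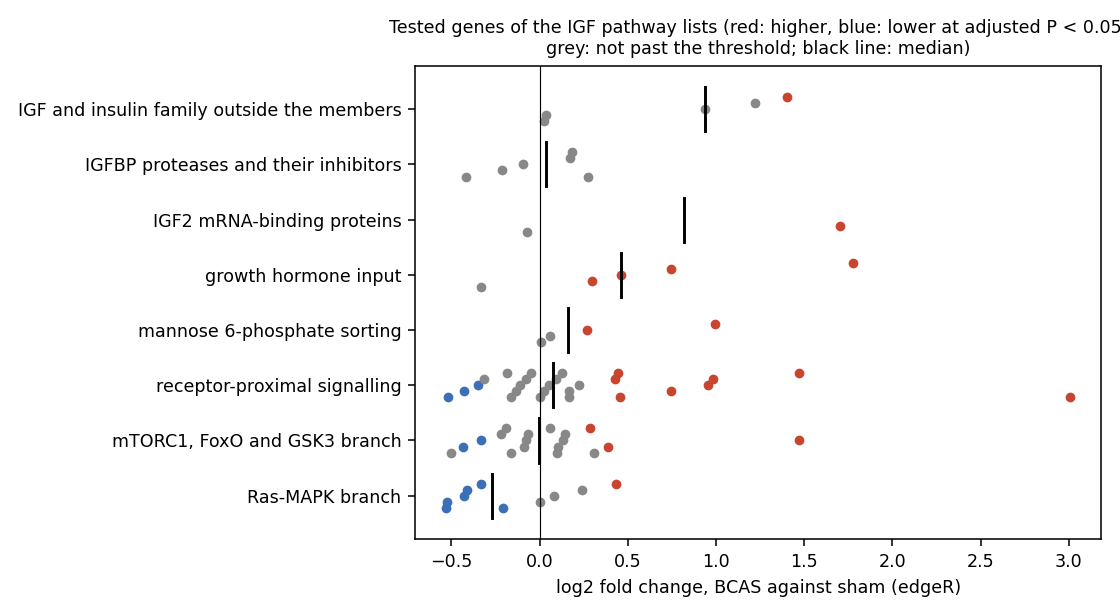
Log2 fold changes of the 76 tested pathway genes by list (red higher, blue lower at adjusted P under 0.05, gray not past it) with the list median as a black line. Growth hormone input lay mostly to the right of 0 and the Ras-MAPK branch mostly to the left, with medians of 0.46 and -0.27.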

How the data were processed

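Per the methods and the submitters' processing notes, the authors trimmed paired-end reads with Trim Galore, aligned them to mm10 with HISAT2 and counted them per gene. The deposited values are raw counts. Per the file headers they come from featureCounts 2.0.3 on GENCODE M20 exons, with mates counted separately, strand ignored and multi-mapped reads left out, while the methods name version 1.6.3 and RefSeq genes. Groups and mouse numbers come from the sample titles. Genes and lists were chosen with earlier results of these data known. edgeR 4.0.16 in R 4.3.3 (filterByExpr, TMM, quasi-likelihood test, no block, Benjamini-Hochberg adjustment over all genes tested) gave every adjusted P unless DESeq2 1.42.0 or limma-voom (limma 3.58.1) is named. The study's thresholds defined DEGs (adjusted P under 0.05, log2 fold change past 1 in either direction). Log2 CPM used a prior count of 2. The text names all 9 members, the 3 nearest profiles of each member DEG, pathway genes by list (all in lists of up to 8, otherwise the 4 with the largest changes, and every DEG) and the 3 most abundant markers per list. Irs1, Irs2, Pdpk1, Pik3r2 and Polr2b fall outside this rule and were named after their values were seen. Some genes that the rule would name are not reported here. Alternative fits are given in the closing section. Steps were tested on simulated data. Precision given by counts covers counting error only.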

Additional observations from a re-analysis of the deposited data

How the results depend on the processing

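Fits with DESeq2, limma-voom, RLE factors, library totals, other filters, halved counts, a replicate block, a choroid plexus covariate (added after the data were seen) and each mouse left out gave 135 alternative values for the 9 genes, of which 117 kept direction and call, and none reversed. Igf1, Igf1r, Igfbp3, Igfbp5 and Igfbp7 stayed on the same side of adjusted P = 0.05 in all 15, though Igfbp7 fell short of a DEG without sham mouse 1 or BCAS mouse 3 (0.95 and 0.96). Igfbp2 was 1.33 with DESeq2 (adjusted P = 0.0840). Igf2r was 0.41 with limma-voom (adjusted P = 0.0528) and 0.40 with RLE (adjusted P = 0.0540). Igfbp4 was -0.30 with library totals (adjusted P = 0.0529), a scaling that moved the median of all genes from 0.018 to 0.095. Igfbp6 was 0.42 with the covariate (adjusted P = 0.0398). Leaving out 1 mouse gave 3 to 6 members called, 0.32 to 0.54 for Igf2r, 1.03 to 1.90 for Igfbp2 and -0.45 to -0.29 for Igfbp4, as well as 3782 to 6646 genes called (fewest without sham mouse 3) and 20 to 35 pathway genes called. Whether the mouse numbers pair the animals is not stated in the sample titles. Same-numbered libraries had residual correlations of 0.036, -0.31 and -0.16, and 1 of 6 libraries correlated best with its own number. So few values cannot exclude a pairing. With the replicate block, 4 members were called, Igf2r was 0.41 (adjusted P = 0.0989) and Igfbp2 was 1.39 (adjusted P = 0.109), and 4532 genes were called in place of 5819. The causes of these shifts were not tested. With 3 mice a group and 1 time point, changes as small as those of Igf1r and Igfbp3 were not resolved.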
